A study of Saccharomyces cerevisiae with 6 samples.

Results

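The 25S rRNA is the long RNA of the large ribosomal subunit of budding yeast, and it holds a pair of long stretches in which no ribose methylation, pseudouridine or base modification is known. The central stretch covers positions 1460 to 1880, 421 positions, and the 3' stretch covers positions 2985 to 3390, 406 positions, so that 827 of the 3396 positions of 25S and of the 5196 positions of mature 18S and 25S were described. The stretches were set by position and by the lack of known modifications, with earlier results of these data known. The 25S gene lies on the minus strand of chromosome XII, chrXII:460923-464318 in the coordinates of the deposited files, which equal those of RDN25-2 in the RefSeq gene table. The central stretch lies at chrXII:462439-462859 and the 3' stretch at chrXII:460929-461334, both inside this non-coding rRNA gene. The deposited annotation lists 75 modified positions of 25S, 1 further base methylation was added by hand, and 37 of the 76 are ribose methylations. The nearest listed positions are 1450 and 1888 on either side of the central stretch and 2975 before the 3' stretch, and none follows the latter.

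Most ribose methyl groups of rRNA are placed with the help of box C/D small nucleolar RNAs, which pair with the rRNA and bring a methyltransferase to the paired position. RiboMeth-seq finds them by their absence: alkali cuts RNA through attack by the free 2' hydroxyl group, so a ribose with a methyl group there is not cut, and no fragment begins or ends at that bond. In a stretch without methyl groups, what is left is the unevenness of cutting, ligation, reverse transcription and mapping. The central stretch lies mostly in domain III of the large subunit RNA. The 3' stretch lies mostly in domain VI, which carries the sarcin-ricin loop, the contact of the translational GTPases and the target of the toxin ricin, and both domains carry expansion segments that bacterial rRNA lacks.

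The series compared 6 yeast samples, 1 in each of 6 groups. The wild-type strain BY4741 gave gel-purified large-subunit rRNA (wild-type LSU), gel-purified small-subunit rRNA (wild-type SSU, whose library also held reads of 25S) and chromatin-associated RNA. Strain YWD680 carries a plasmid with an artificial small nucleolar RNA directed at U2954 of 25S and gave whole-cell RNA (knock-in whole-cell, deposited as 2 files, here called run 1 and run 2, and as their sum, used as 1 sample) and gel-purified large-subunit rRNA (knock-in LSU). Strain YWD486 carries a plasmid with the snR67-snR53 region in which a substitution blocks methylation at G2619, and gave whole-cell RNA (knock-out whole-cell). Both targets lie outside the stretches, U2954 31 positions before the 3' stretch. With 1 sample in each group, no test between groups was possible, and a difference between strains cannot be told apart from a difference between RNA preparations or libraries.

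A read end is the first or last nucleotide of a sequenced fragment, counted at the bond that was cut. On 25S the number of read ends was lowest for wild-type SSU, 70381, and highest for the chromatin-associated sample, 18489246. The mean per position ran from 21.3 to 5633 in the central stretch and from 18.9 to 5295 in the 3' stretch, and no position of either was at 0 in any of the 6 samples. The wild-type SSU library, the shallowest, carried about 20 read ends per position, so single positions there were known only roughly. The 2 runs of the knock-in whole-cell sample stood apart from each other: their counts correlated with Spearman's rho of 0.144 across the 421 central positions and 0.0882 across the 406 of the 3' stretch. The values of this sample are those of the sum, and the runs are given apart where they change a direction, a call or a value that a comparison rests on.

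**Figure D1:**
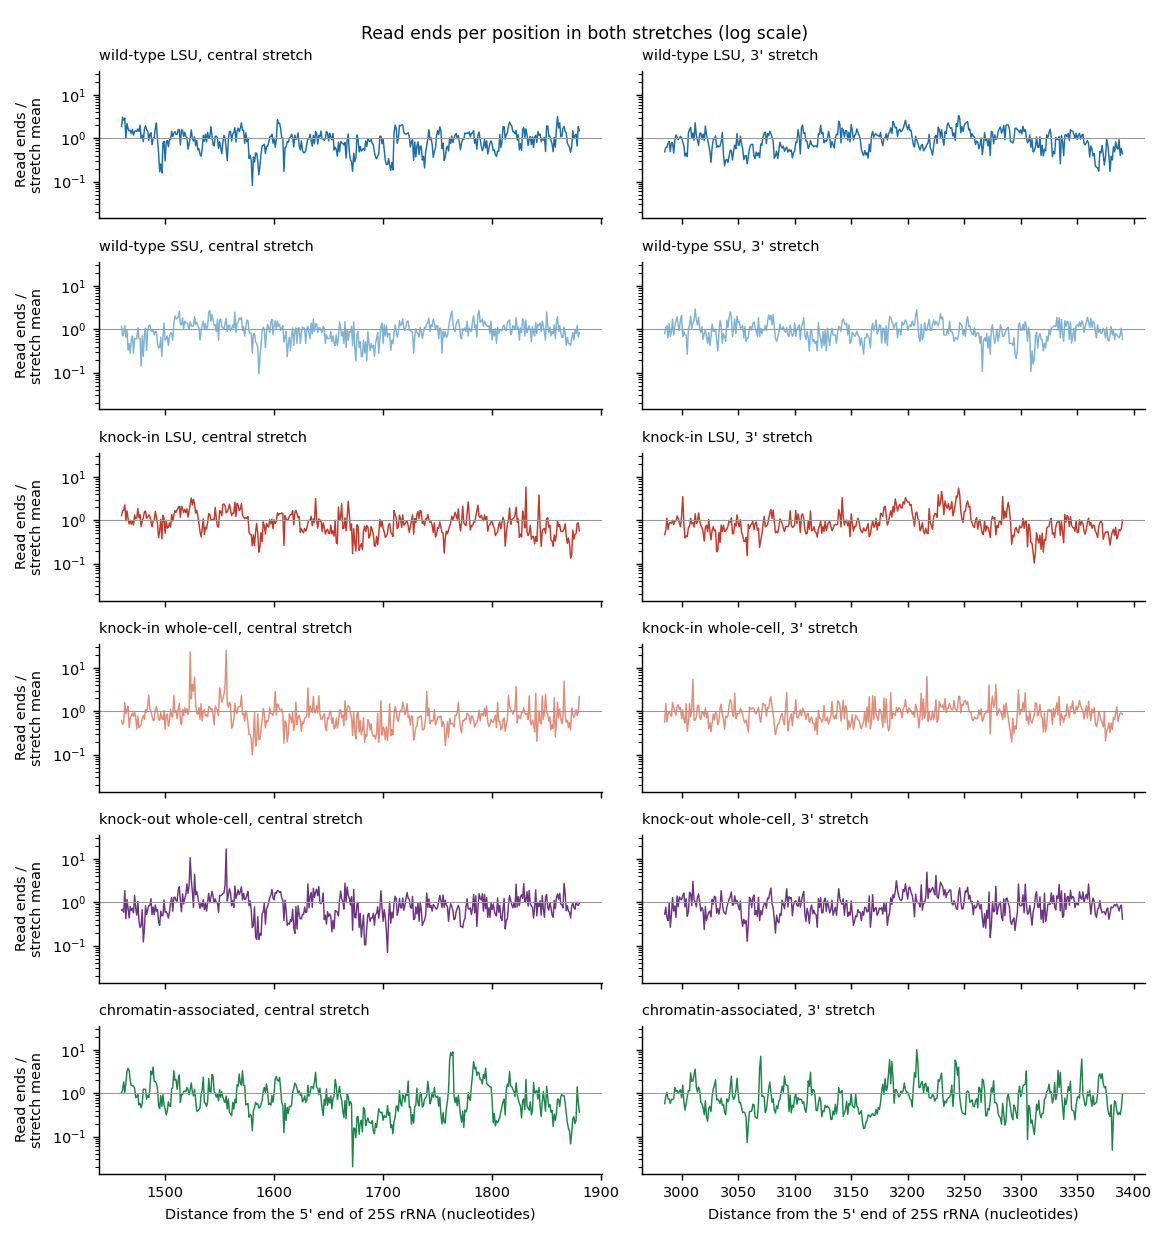
Read ends per position divided by the mean of the stretch (log scale) against the distance from the 5' end of 25S, for the 6 samples (rows) in the central (left) and the 3' stretch (right), with a grey line at 1. The highest points are 1523 and 1556 in the knock-in and knock-out whole-cell samples, and the deepest dip is 1672 in the chromatin-associated sample.

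Unevenness was measured as the coefficient of variation of the counts over positions, with the variance from counting subtracted. The central stretch ran from 0.409 to 1.76 over the 6 samples with a median of 0.816, the 3' stretch from 0.389 to 1.04 with a median of 0.603, and 1935 other unlisted positions of 25S from 0.553 to 1.03 with a median of 0.796. Even without any known modification, counts thus differed widely along the stretches in every library.

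By this measure the gel-purified wild-type libraries were the most even. Wild-type LSU gave 0.508 in the central and 0.516 in the 3' stretch, and wild-type SSU gave 0.409 and 0.389. Knock-in LSU gave 0.607 and 0.715. The chromatin-associated sample, also from the wild-type strain, gave 1.02 and 1.04. In these 4 samples the stretches lay close together. The other two samples, both of whole-cell RNA, differed between the stretches: knock-in whole-cell gave 1.76 in the central and 0.619 in the 3' stretch, and knock-out gave 1.07 and 0.586. The knock-in value came from run 2, with 2.41 and 0.916, whereas run 1 gave 0.647 and 0.598.

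Over the 6 samples the central stretch exceeded the 3' stretch by 0.254 ± 0.485 (SD, n = 6), and it was higher in 3 of 6 samples (exact two-sided sign-flip permutation test, p = 0.406, adjusted p = 0.531 over 3 tests). This difference fell to 0.0129 without the 1% highest positions and to 0.0713 with run 1 in place of the sum. The central stretch exceeded the other unlisted positions by a mean of 0.116, in 3 of 6 samples (exact permutation p = 0.531, adjusted p = 0.531). The 3' stretch lay below the other positions by a mean difference of -0.138, in 5 of 6 samples (exact permutation p = 0.156, adjusted p = 0.469). None of the 3 differences passed the test, for which 0.03125 is the smallest p that 6 samples can give. Measured by the robust spread of log2 counts, which gives little weight to single high positions, both stretches lay below the other positions in 6 of 6 samples, by mean differences of -0.0944 (central) and -0.150 (3'), each with an unadjusted exact permutation p of 0.03125. The other positions are scattered over the whole molecule, so their spread also holds differences between its regions.

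**Figure D2:**
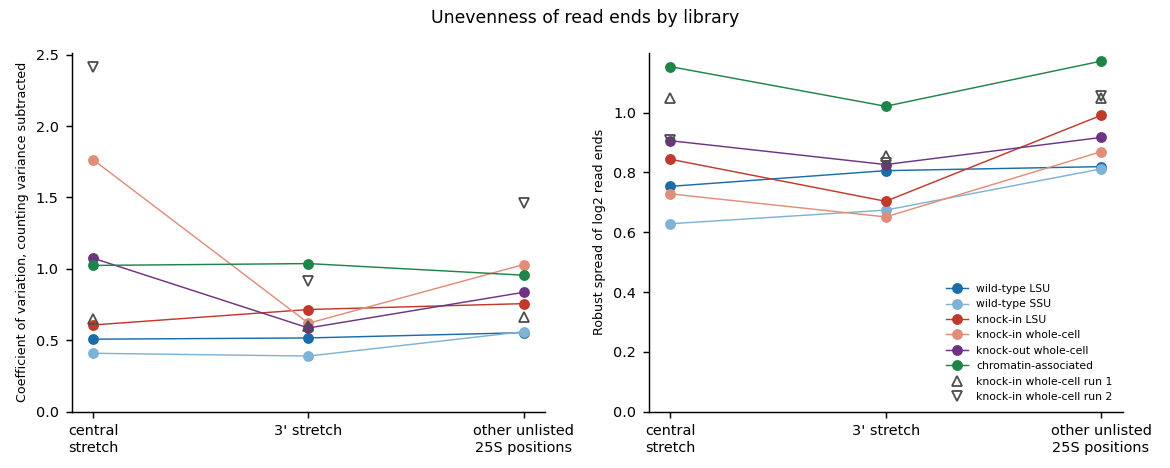
Coefficient of variation with counting variance subtracted (left) and robust spread of log2 read ends (right) for the central stretch, the 3' stretch and the other unlisted 25S positions. Filled points joined by lines are the 6 samples and open triangles are the 2 runs of the knock-in whole-cell sample. On the left the whole-cell samples rise to 1.76 and 1.07 in the central stretch, and on the right every sample is lower in both stretches than in the other positions.

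The excess in whole-cell RNA lay at and around a pair of positions of the central stretch. In the knock-in whole-cell sample, 5' ends piled up at 25S-1523 (5155 ends, 10.4% of all 5' ends of the central stretch and 43.9 times their mean) and 3' ends at 25S-1556 (5676 ends, 11.5% and 48.4 times the mean). The knock-out sample had the same pair, with 608 5' ends at 1523 (4.96%) and 973 3' ends at 1556 (8.16%). The positions lie 33 nucleotides apart, and the design names fragments of 20 to 40 nucleotides. In both samples the 3' ends at 1556 outnumbered the 5' ends at 1523.

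In the knock-in whole-cell sample nearly all of these ends came from 1 run. Run 2 held 5086 and 5592 of these ends, whereas run 1 held 69 and 84, which is 0.488% of its 5' and 0.636% of its 3' ends. Wild-type LSU held 276 and 173 ends, wild-type SSU 22 and 37, and knock-in LSU 728 and 490. The chromatin-associated sample held 6346 and 4219. In those 4 samples and run 1 each of the ends made up at most 1.03% of its kind. The files do not pair the ends of single reads, so whether the same fragments carried both ends was not tested.

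Leaving out both positions, those between them and 6 on each side lowered the central coefficient of variation of knock-in whole-cell from 1.76 to 0.662 and of knock-out from 1.07 to 0.569. The remaining 4 samples moved little, from 0.508 to 0.521 in wild-type LSU and, the most, from 1.02 to 1.07 in the chromatin-associated sample. Positions 1523 and 1556 were named after their values were seen.

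**Figure D3:**
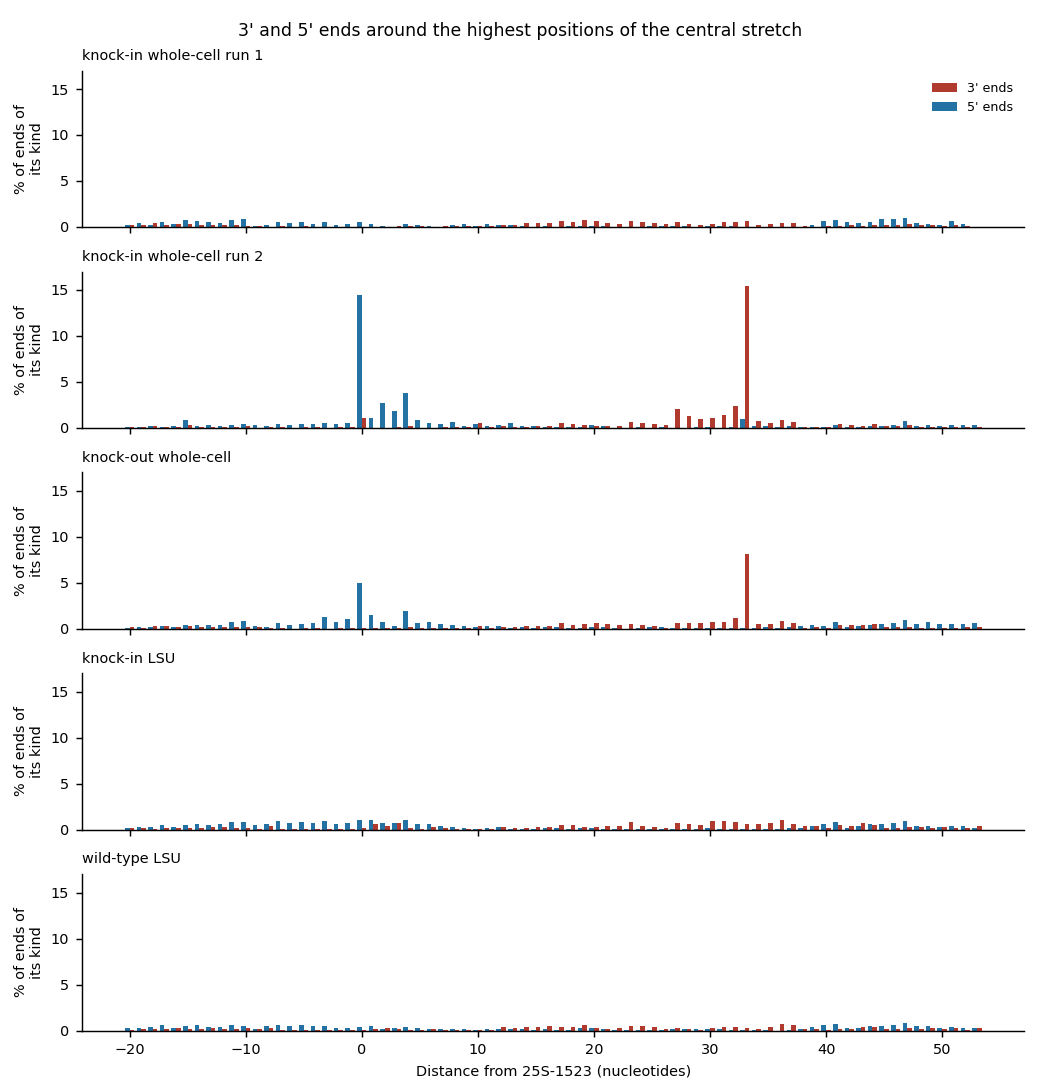
Share of the 3' ends (red) and of the 5' ends (blue) of the central stretch at each position from 20 before 25S-1523 to 20 after 25S-1556, against the distance from 1523, in both knock-in whole-cell runs and 3 further samples. Run 2 and the knock-out sample show a 5' peak at 0 and a 3' peak at 33, whereas run 1, knock-in LSU and wild-type LSU stay at about 1% or less.

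Other high positions, chosen after their values were seen as the highest of a library, differed from library to library. In wild-type LSU the highest were 25S-1860 with 1093 read ends, 3.19 times the stretch mean, and 25S-3245 with 1048, 3.38 times the mean. In knock-in LSU 25S-1831 reached 2149 read ends, 5.88 times the mean, 98.0% of them 3' ends, and 25S-3245 again led the 3' stretch with 1508, 5.57 times the mean. In the chromatin-associated sample 25S-1764 reached 51360 read ends, 9.12 times the mean, of which 3.31% were 3' ends, and 25S-3208 reached 54065, 10.2 times the mean and 91.7% 3' ends. Each of these peaks held more of 1 kind of end than of the other.

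The whole-cell samples also shared a high position of the 3' stretch. 25S-3217 led it in both, with 1242 read ends in knock-in whole-cell (6.37 times the mean) and 357 in knock-out. The knock-in runs differed here too, with 68 read ends in run 1 and 1174 in run 2. In wild-type LSU it held 224 read ends, 0.722 times the mean. Of the positions described here, 25S-3010, near the start of the sarcin-ricin loop, stood at 5.43 times the mean in knock-in whole-cell and 3.07 times in knock-out, and at 0.886 to 1.95 times in the other four samples. Run 1 lay within that range, at 1.23 times, and run 2 stood at 8.29 times, so the high knock-in value at 3010 came from run 2. Positions 3245, 1860, 1831 and 3010 fall outside the naming rule and were chosen after their values were seen.

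Local dips and peaks were called from the relative end count, the count at a position over the weighted mean of the 6 positions on each side. A position was called protected below 0.5 and hypersensitive above 2, where the exact Poisson 95% interval of its count excluded the flanks' level and the flanking mean was at least 10. Reads carried no molecular identifiers, so all such intervals cover counting error only.

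The share of protected positions lay near that of the other positions in most libraries, and the widest gap was that of the 3' stretch in knock-in whole-cell. In the central stretch 32 of 421 positions (7.60%) were protected in wild-type LSU and 27 (6.41%) in wild-type SSU, and in the 3' stretch 21 of 406 (5.17%) and 32 (7.88%), beside 6.98% and 6.1% of the other unlisted positions. Knock-in LSU had 39 central (9.26%) and 25 3' positions (6.16%) beside a background of 8.27%. Chromatin-associated RNA had the largest shares, 70 (16.6%) and 73 of 406 positions beside 15.9%. In knock-in whole-cell 69 central (16.4%) but only 35 3' positions (8.62%) were protected beside 14.1%, and in knock-out 59 (14.0%) and 39 (9.61%) beside 11.5%. The knock-in runs taken singly gave 62 central and 47 3' positions in run 1, beside 14.9%, and 93 and 72 in run 2, beside 22.5%. The 3' stretch had a smaller share than the central stretch in 4 of the 6 samples.

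Hypersensitive positions were rarer. Wild-type LSU had 8 central and 5 3' positions beside a background of 1.86%, wild-type SSU 7 and 4 beside 1.71%, and knock-in LSU 12 and 9 beside 3.41%. Knock-in whole-cell had 27 and 21 beside 5.32% (12 and 16 beside 3.36% in run 1, 32 and 29 beside 7.13% in run 2), knock-out 14 and 21 beside 5.48%, and the chromatin-associated sample 23 and 27 beside 5.53%. As a share, the counts of the 6 samples ran from 0.985% to 6.65% of a stretch.

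Only 2 positions, both central, were protected in all 6 samples, 25S-1580 and 25S-1728. They are 0.475% of the central stretch, beside 0.413% of the other unlisted positions, and the 3' stretch held none. The pair depended on how dips were measured: the call at 1580 was lost with the median of the flanks, that at 1728 with 5' ends alone, and both with flanks of 2 positions, with 3' ends alone and below a limit of 0.3. At 25S-1580 the files held 28 read ends in wild-type LSU, 6 in wild-type SSU, 94 in knock-in LSU, 23 in knock-in whole-cell, 15 in knock-out and 769 in the chromatin-associated sample. Its relative end counts, in the same order, were 0.168, 0.342, 0.419, 0.212, 0.356 and 0.298, lowest in wild-type LSU. All 23 ends of the knock-in whole-cell sample came from run 2. Run 1 had 0 there against a flanking mean of 17.7 ends, and the exact Poisson 95% interval of its relative end count reached 0.209.

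At 25S-1728 the read ends in the same order were 106, 6, 175, 51, 23 and 1160, and the relative end counts were 0.385, 0.297, 0.444, 0.328, 0.450 and 0.304. These values were alike across libraries, from 0.297 to 0.450, and both kinds of end lay below their flanks at 1728 in each. At 25S-1580, by contrast, the 3' ends alone gave relative counts from 0.0746 in wild-type LSU to 0.719 in knock-in LSU, whereas the 5' ends alone stayed between 0.195 and 0.299.

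A further 10 positions were protected in 5 of 6 samples, and these were named after their values were seen. Counting all those protected in at least 5 samples, the central stretch held 7 (1.66%) and the 3' stretch 5 (1.23%), beside 1.19% of the other unlisted positions. The central ones beyond 1580 and 1728 were 25S-1609, 25S-1672, 25S-1586, 25S-1872 and 25S-1856, and the sample that failed was wild-type SSU in 4 of them and the chromatin-associated sample at 1586. The 3' ones were 25S-3005, 25S-3273, 25S-3338, 25S-3320 and 25S-3083, each failing in a sample of its own or in the chromatin-associated sample (3005 and 3273).

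25S-1609 was the lowest of these by its median relative end count, 0.212. It held 59 read ends in wild-type LSU (relative end count 0.140, the lowest of both stretches there), 11 in wild-type SSU (0.590), 96 in knock-in LSU (0.202), 43 in knock-in whole-cell (0.222, with 0.115 in run 1 and 0.293 in run 2), 22 in knock-out (0.364) and 699 in the chromatin-associated sample (0.143). Both kinds of end lay below their flanks there in each of the 6 samples. In the 3' stretch, 25S-3005, shortly before the sarcin-ricin loop, had the lowest median, 0.365. It held 118 read ends in wild-type LSU (0.372), 5 in wild-type SSU (0.219), 113 in knock-in LSU (0.428), 67 in knock-in whole-cell (0.277, with 0.410 in run 1 and 0.232 in run 2), 34 in knock-out (0.359) and 4350 in the chromatin-associated sample (0.611).

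25S-3273 showed the widest difference between libraries among the 3' positions. Its relative end count was 0.174 in knock-in whole-cell and 0.195 in knock-out, 0.386 in wild-type LSU and 0.766 in the chromatin-associated sample. The knock-in runs gave 0.147 and 0.193 there. In knock-in whole-cell its flanks held the high positions 25S-3272 (803 read ends) and 25S-3278 (823). Their mean was 339 against a stretch mean of 195, so the low value there rests partly on high neighbours. In knock-out the flanking mean was 56.5 against a stretch mean of 71.4. At 25S-3338 the chromatin-associated sample was the lowest, with 0.189, beside 0.385 in wild-type LSU, 0.380 in knock-out and 0.545 in knock-in whole-cell. The runs gave 0.762 and 0.423, so the knock-in value at 3338 was high through run 1. Over the 6 samples 25S-3320 ran from 0.377 to 0.516 and 25S-3083 from 0.243 to 0.523.

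**Figure D4:**
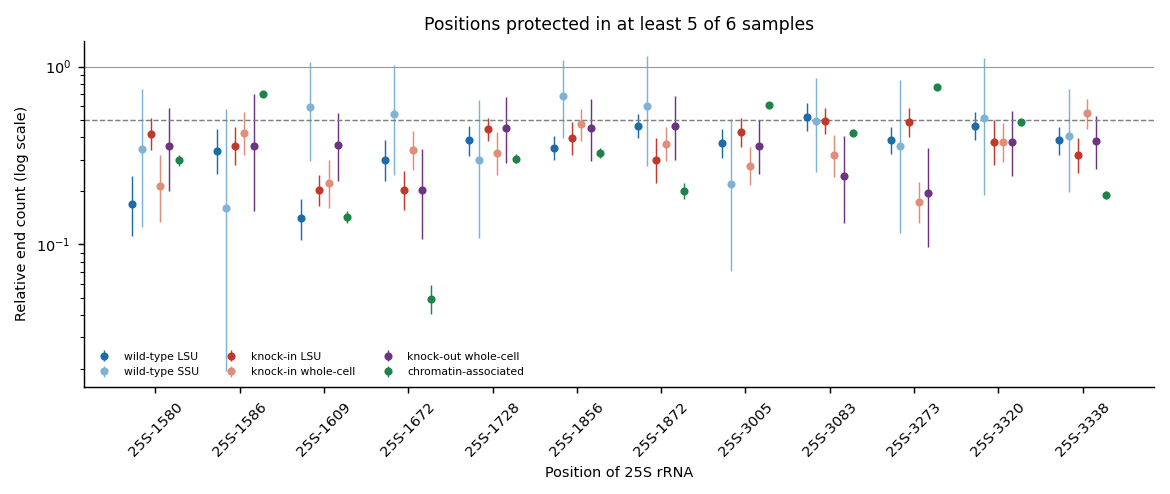
Relative end count (log scale) with its exact Poisson 95% interval at the 12 positions protected in at least 5 of the 6 samples, by position and sample. The dashed line marks the limit of 0.5 and the grey line the level of the flanks. The lowest point is 25S-1672 in the chromatin-associated sample at 0.0490, and the intervals of wild-type SSU are the widest.

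25S-1672 in chromatin-associated RNA was the deepest dip of either stretch. It held 113 read ends, fewer than any other of the 5196 positions in that file, and its relative end count was 0.0490 (95% interval 0.0403 to 0.0589). The 3' ends were lower, relative to their flanks, than the 5' ends, at 0.0191 against 0.238. Elsewhere the position held 59 read ends in wild-type LSU (0.298), 9 in wild-type SSU (0.539), 62 in knock-in LSU (0.203), 65 in knock-in whole-cell (0.341, with 0.0876 from 6 ends in run 1 and 0.484 in run 2) and 13 in knock-out (0.202). In the chromatin-associated sample the 37 listed ribose methylations had a median relative end count of 0.162 and a lowest of 0.0498, so that 1672 lay just below all of them. The authors' deposited detection score (Score A) was 0.845 at 1672 in that sample, rank 2 of 5196 with 0.847 the highest, and 0.142 in wild-type LSU. The position is not in the deposited annotation, and with 1 chromatin-associated sample there is no replicate of this value.

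In the other libraries the stretches and the ribose methylations were better separated. The median relative end count of the 37 listed ribose methylations was 0.0246 in wild-type LSU, beside a median of 0.966 over both stretches. In that library 33 of 37 sites lay below the lowest position of both stretches. The number was 33 in wild-type SSU, 25 in knock-in LSU, 27 in knock-in whole-cell and 28 in knock-out, and 0 in the chromatin-associated sample. That 0 was set by 25S-1672 alone, since the next lowest position of the stretches there, 25S-3306, stood at 0.0816. Sites and stretches still overlapped in that library without 25S-1672. 25S-3306, 25S-3381 (0.0941), 25S-1757 (0.111) and 25S-1609 (0.143) all lay below the median of the 37 sites there, 0.162. The number of sites below 25S-3306 was not counted.

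No position of either stretch was hypersensitive in 5 or 6 samples, beside 0.207% and 0.0517% of the other unlisted positions. In at least 3 samples, 0.238% of the central and none of the 3' positions were hypersensitive, beside 0.982% of the other unlisted positions. The single central one, 25S-1822, was hypersensitive in 3, and it was named after its values were seen. Its read ends were 516 in wild-type LSU, 40 in wild-type SSU, 737 in knock-in LSU, 883 in knock-in whole-cell, 152 in knock-out and 9845 in the chromatin-associated sample. The relative end count was 2.02 in knock-in LSU (95% interval 1.87 to 2.17), 4.17 in knock-in whole-cell and 2.55 in knock-out. It was 1.17 in wild-type LSU, 1.78 in wild-type SSU (1.28 to 2.43) and 1.70 in chromatin-associated RNA, so knock-in LSU and wild-type SSU, on either side of the limit, overlapped in their intervals. With 3' ends alone wild-type SSU (2.67) and chromatin-associated RNA (2.25) stood as high as knock-in LSU (2.26). The knock-in whole-cell runs gave 2.08 and 5.38.

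Over 17 windows, 16 of 50 positions and 1 of 21, 4 lay on the same side of the mean of all unlisted 25S positions in all 6 samples. Windows over the rest of 25S were not counted, so whether 4 of 17 is usual for this rRNA was not tested. Window 1660 to 1709 was low, at 0.357 to 0.696 times that mean, and it holds 25S-1672. Windows 3085 to 3134 and 3135 to 3184 were also low, at 0.614 to 0.949 and 0.723 to 0.940. Window 3185 to 3234 was high, at 1.03 in wild-type LSU to 1.90 in knock-out. The runs kept the side in the low windows, with 0.898 and 0.521 in window 1660 to 1709, but run 1 gave 0.896 and run 2 1.16 in window 3185 to 3234.

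The profile of counts along a stretch was only partly shared between libraries. Over the 15 pairs of samples, Spearman's rho across positions ran from 0.310 to 0.711 with a median of 0.467 in the central stretch and from 0.173 to 0.649 with a median of 0.397 in the 3' stretch. For the other unlisted positions it ran from 0.316 to 0.652 with a median of 0.461. The highest value in either stretch was that of knock-in whole-cell with knock-out, but in the central stretch this held for the sum of the runs only. With knock-out, run 1 gave 0.476 in the central and 0.284 in the 3' stretch and run 2 gave 0.605 and 0.625, and wild-type SSU with knock-out gave 0.653 in the central stretch. Neighbouring positions share fragments and base composition, so these values are descriptions, with no p.

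The 3' and the 5' ends, deposited in separate tracks, followed different patterns along the stretches. In the central stretch 3' ends made up 49.3% to 54.0% of the ends and in the 3' stretch 50.9% to 54.6%, and the share was higher in the 3' stretch in all 6 samples. Most of this excess sat at the very end of the rRNA. Over positions 3361 to 3390, 86.7% of the ends were 3' ends in wild-type LSU (95% Wilson interval 85.7% to 87.7%), and the range over samples was 81.6% to 88.7%, against 28.3% to 50.2% in the 30 positions before. Without these last 30 positions the 3' stretch gave 48.7% to 53.2%. Its share then still exceeded the central one in wild-type LSU (50.7% against 50.3%) and knock-in whole-cell (50.07% against 49.97%). In the other samples it lay below the central share.

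The last position with at least 10 5' ends was 3370 in wild-type LSU, 3365 in wild-type SSU, 3369 in knock-in LSU, 3374 in knock-in whole-cell, 3370 in knock-out and 3383 in the chromatin-associated sample. The chromatin-associated library, with the most reads, thus still held 5' ends closest to the end of the rRNA. Depth differed between these libraries, and its part in this order was not tested.

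At the same position the 3' and the 5' counts were nearly unrelated. Spearman's rho between the tracks ran from -0.151 to 0.0157 over the 421 central positions and from -0.157 to 0.138 over the 406 of the 3' stretch. Shifting the tracks against each other gave higher values. The Pearson correlation of log2 counts was highest when 3' ends were read 27 to 32 nucleotides after 5' ends in the central stretch of 5 samples, and 29 to 35 nucleotides after in the 3' stretch. In the chromatin-associated sample the best distance was 23 in the central and 22 in the 3' stretch. The knock-in whole-cell runs gave 33 and 29 in the central and 34 and 26 in the 3' stretch, where the sum gave 32 and 33. The best values of r ran from 0.335 to 0.586 in the central and from 0.291 to 0.494 in the 3' stretch, as descriptions across positions that share fragments.

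**Figure D5:**
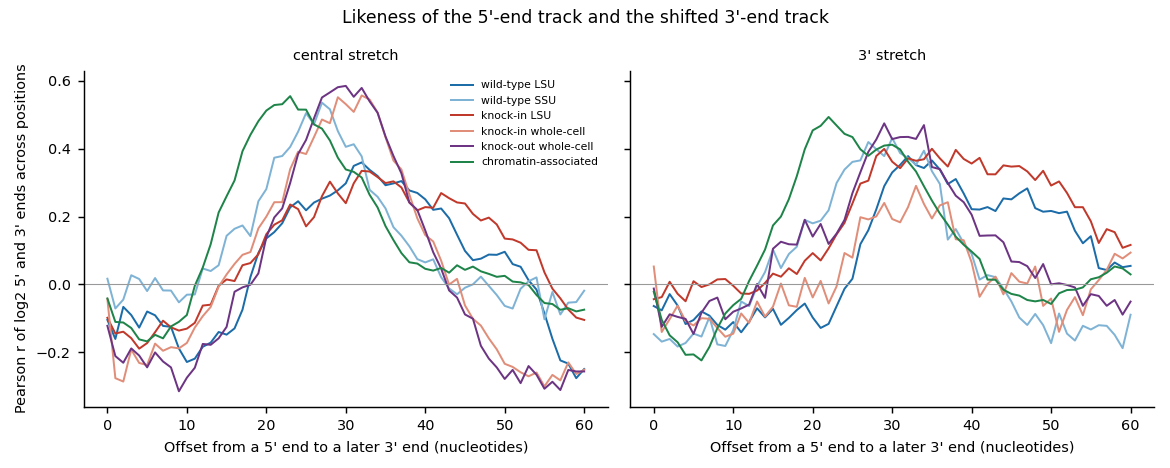
Pearson correlation across positions between log2 5'-end counts and log2 3'-end counts a given number of nucleotides later, for the 6 samples in the central (left) and 3' stretch (right). The curves peak at 27 to 35 nucleotides, except that the chromatin-associated sample peaks at 23 and 22.

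Libraries were then compared pair by pair, by each position's share of the read ends on unlisted 25S positions. A position was called where the ratio was at least 2-fold, its exact 95% interval excluded 1, and 1 of the libraries held at least 10 ends there. The comparisons with wild-type LSU share that library. As a yardstick, the 2 runs of the knock-in whole-cell sample were compared in the same way: run 2 was higher at 102 central and 44 3' positions, beside 18.3% of the other positions, and lower at 93 and 138, beside 31%. Between these runs of 1 sample the 3' stretch took 13.4% of the ends on unlisted positions in run 1 and 9.61% in run 2, a ratio of 0.720. More positions differed between the runs than in any of the 5 comparisons of samples.

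Knock-in LSU was higher than wild-type LSU at 56 central and 17 3' positions (8.37% of the other positions) and lower at 36 and 53 (13.4%). The largest ratios were at 25S-1557, with 574 read ends against 104 (ratio 5.67), and at 25S-3312, with 28 against 160 (0.180). At 1557 most ends in both libraries were 3' ends. Next came 25S-1496 (389 against 87, ratio 4.59) and 25S-1738 (277 against 71, ratio 4.01) in the central stretch, and 25S-3001 (958 against 256, ratio 3.85) and 25S-3032 (55 against 210, ratio 0.269) in the 3' stretch. The files' headers state a mapping filter for knock-in LSU only, and its part in these values was not tested.

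Knock-out was higher than wild-type LSU at 45 central and 94 3' positions (11.6% of the other positions) and lower at 81 and 20 (16.6%). The 3' stretch as a whole took 13.6% of these ends in knock-out and 10.3% in wild-type LSU, a ratio of 1.32. The run 1 share of the knock-in sample, 13.4%, was close to that of knock-out. The largest ratios were those of 25S-1556 (27.9) and 25S-1523 (10.3), described above, and 25S-3217 (9.13). 25S-3222 was also higher (158 against 127 read ends, ratio 7.12), whereas 25S-1684 (6 against 298, ratio 0.115) and 25S-3295 (16 against 530, ratio 0.173) were lower.

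Chromatin-associated RNA was higher than wild-type LSU at 70 central and 73 3' positions (13.3% of the other positions) and lower at 99 and 86 (31.3%). Both libraries are from BY4741. The largest ratio was at 25S-3369, with 13339 read ends against 54 (ratio 16.5), within the last stretch that is rich in 3' ends. 25S-3335 (16230 against 80, ratio 13.5) and 25S-3208 (54065 against 286, ratio 12.6) followed in the 3' stretch, and 25S-1762 (49963 against 262, ratio 12.7) and 25S-1764 (51360 against 272, ratio 12.6) in the central stretch. 25S-1672 was lower, with a ratio of 0.128. The ends at 1762, 1764 and 3335 were mostly 5' ends and those at 3208 and 3369 mostly 3' ends.

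Knock-in whole-cell was higher than knock-out, the other whole-cell sample, at 47 central and 7 3' positions (9.15% of the other positions) and lower at 13 and 53 (9.56%). The largest ratios were at 25S-1480 (186 against 7 read ends, ratio 7.77), 25S-1757 (38 against 64, ratio 0.174) and 25S-1526 (684 against 44, ratio 4.55). In the 3' stretch they were at 25S-3221 (127 against 141, ratio 0.263), 25S-3274 (267 against 21, ratio 3.72) and 25S-3223 (124 against 133, ratio 0.273). This pair had the fewest called positions of the 5, 120 in both stretches, but with run 1 alone in place of the sum there were 277 and with run 2 alone 255. At 1526 the direction turned, with a ratio of 0.364 in run 1 and 6.59 in run 2, and at 3274 the ratio was 7.41 in run 1 and 1.91 in run 2. The remaining positions named for this pair kept their direction in both runs.

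Knock-in LSU was higher than knock-in whole-cell, from the same strain, at 55 central and 27 3' positions (16.5% of the other positions) and lower at 36 and 75 (14.9%). 25S-1556 (543 against 6028 read ends, ratio 0.0553), 25S-1523 (871 against 5536, ratio 0.0965) and 25S-1866 (231 against 1181, ratio 0.120) led in the central stretch. 25S-3217 (139 against 1242, ratio 0.0687), 25S-3278 (125 against 823, ratio 0.0932) and 25S-3313 (52 against 309, ratio 0.103) led in the 3' stretch. All of these were lower in gel-purified than in whole-cell RNA for the sum of the runs and for run 2. With run 1 as the whole-cell library the direction turned at 1523, with a ratio of 2.44 (95% interval 1.92 to 3.15). At 1556 the ratio was 1.22, with an interval that held 1 (0.972 to 1.54). It was 0.315 at 1866, 0.412 at 3217, 0.123 at 3278 and 0.0472 at 3313. With run 1 alone, 374 positions were called in place of 193.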

How the data were processed

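The authors' sample files hold 6 tracks in 1 column, so that column mixes units: whole-number counts of 3' ends, of 5' ends and of both, deposited without normalization per the file headers, and 3 kinds of score (only Score A is printed). The submitters' processing notes name cutadapt 1.2 and Bowtie2 2.1.0. The genome build was not given in the sources used here, nor were mapping options. Reads from all rDNA copies counted towards 1 sequence. Only the headers of the knock-in LSU file state that reads with errors near the RNA end, within 3 nucleotides, were left out.

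The members, limits and comparisons were chosen with earlier results of these data known. Flank weights fell from 1 to 0.5 in steps of 0.1 over 6 positions. Named positions were those recurring in every sample, at most 6 of a kind per stretch, and the 3 largest called ratios per stretch and pair; others are said to be chosen after their values were seen. Unevenness was compared by an exact two-sided sign-flip permutation test over 6 samples, all with a mean of at least 10 read ends per position, with Benjamini-Hochberg adjustment over the 3 tests. The robust spread used log2(count + 0.5), and the shifted tracks log2(count + 1). Positions are not replicates. Counting intervals cover counting error only. The bases at the positions were not analysed here. Computation used python 3.11.15, numpy 2.4.6, scipy 1.17.1 and matplotlib 3.10.9. The calls were tested on simulated even Poisson counts with planted dips and peaks, which lack the unevenness of the real libraries.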

Additional observations from a re-analysis of the deposited data

How the results depend on the processing

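Of 148 recomputed values, 114 kept their direction and side of the test or, for counts and medians, stayed within the limits set for them; 29 counts moved, 3 differences reversed and 2 passed the test only under the alternative. The mean difference in unevenness between the central stretch and the other positions changed sign with the robust spread (-0.0944), with the 1% highest positions left out (-0.0732) and without knock-in whole-cell (-0.00788). The first and second had exact permutation p of 0.03125. The 3' stretch fell below the other positions with p = 0.03125 (exact permutation) by the robust spread (-0.150) and without the 1% highest positions (-0.0861). Central minus 3' kept its sign but shrank from 0.254 to 0.0129 without the 1% highest positions, 0.0553 by the robust spread and 0.0713 with run 1 in place of the sum. Leaving out 1 sample at a time gave 0.0757 to 0.326 for central minus 3', -0.00788 to 0.169 for central minus other, and -0.182 to -0.0836 for 3' minus other. Over all alternatives the exact permutation p ran from 0.188 to 0.812, from 0.03125 to 1 and from 0.03125 to 0.375, in the same order. Dependence on the highest positions is built into the coefficient of variation.

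Recurring protected positions of the central stretch numbered 1 with flanks of 2 positions (25S-1675), 1 with the median of the flanks (25S-1728), 0 below a limit of 0.3, 1 with 3' ends alone (25S-1771), 2 with 5' ends alone (25S-1546 and 25S-1580), 3 with flanks of 15 positions (25S-1532, 25S-1580 and 25S-1728), 7 where 5 samples sufficed, and 2 to 6 with 1 sample left out, the 6 without wild-type SSU. Those of the 3' stretch numbered 1 with flanks of 15 positions (25S-3320), 3 with 3' ends alone, 3 with 5' ends alone, 5 where 5 samples sufficed, 1 with run 2 in place of the sum (25S-3338, an alternative chosen after seeing the data), and 0 to 2 with 1 sample left out, the 2 without the chromatin-associated sample. The cause was not tested. Recurring hypersensitive positions stayed at 0 in both stretches under every alternative run. Many of these values were fixed in advance, since no position was hypersensitive in more than 3 samples. Leaving out 1 sample, letting 5 suffice, taking 1 run for the sum or raising the limit to 3 could only give 0. Such values are counted among the 114 above but do not test robustness.

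A limit of 3-fold left 36 positions of both stretches for knock-in LSU over wild-type LSU, 85 for knock-out and 139 for chromatin-associated over wild-type LSU, 20 for knock-in whole-cell over knock-out, 68 for knock-in LSU over knock-in whole-cell and 219 for run 2 over run 1. With 3' ends alone 333, 390, 181 and 324 were called for knock-in LSU and knock-out over wild-type LSU, knock-in whole-cell over knock-out and knock-in LSU over knock-in whole-cell, and with 5' ends alone 218 for knock-in whole-cell over knock-out. With run 1 alone that pair gave 277 and with run 2 alone 255, and knock-in LSU over run 1 gave 374.

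No paired analysis was possible because each group holds 1 sample, so no replicate numbers pair samples between groups; the sign-flip tests pair sets of positions within a sample. A shallower sample could not be added, since all 6 samples passed the depth minimum. The wild-type SSU library, with about 20 read ends per position, limits what can recur in all samples.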
